A study of Mus musculus with 3 samples.

Results

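The synaptic vesicle release machinery was taken as 38 listed genes. They comprise 4 SNARE genes, 4 complexins, 3 synapsins, 7 proteins of the vesicle membrane, 7 genes of the active zone and of vesicle priming, and 13 synaptotagmins. All 38 were found by symbol among the 36809 genes present in all 3 expression tables. The tables came from polyadenylated RNA of brain, whole testis and liver of male C57BL/6 mice aged 11 weeks, with 1 strand-specific library per tissue read as single 76-base reads in 3 lanes. The labels give the strain and no allele or agent, so the 3 groups differ only in tissue as far as the labels state. Levels are FPKM, a fragment count divided by transcript length and by the size of the library, and each comes with the authors' own confidence bounds.

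Neurotransmitter leaves a nerve terminal when a vesicle fuses with the plasma membrane. A vesicle SNARE, a VAMP, pairs with SNAP-25 and syntaxin-1 on the plasma membrane, complexins hold the assembled bundle ready, and synaptotagmins sense the calcium that triggers fusion. Active zone proteins place and prime vesicles at the release site, and synapsins tether the reserve pool. Mature neurons use these genes most, and in testis the release of the sperm acrosome is also a regulated exocytosis that depends on SNAREs.

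With 1 library per tissue there is no replicate check and no test of any difference. The bounds describe the estimate within a library and not the spread between mice. A gene was called higher in a tissue when it differed at least 4-fold on the scale log2(FPKM + 1) and its bounds were apart from those of the other tissue. In whole tissue, fewer cells of a type and less RNA per cell cannot be told apart. The tissue labels were checked against markers. The 6 hepatocyte markers summed to 66970 FPKM in liver, the 8 spermatid and spermatocyte markers to 40251 FPKM in testis, and the 6 neuronal markers to 670 FPKM in brain. In the brain library the spermatid and spermatocyte markers summed to 32.8 FPKM, with the protamine gene Prm2 at 9.56 FPKM, against 12924 FPKM in testis.

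Brain carried nearly all of the expression of these genes. The 38 members summed to 2957 FPKM in brain, 55.3 FPKM in testis and 9.13 FPKM in liver, which was 0.857%, 0.00973% and 0.00149% of the FPKM of all protein-coding genes. At a level of 1 FPKM or more, 34 of 38 were found in brain, 12 in testis and 3 in liver. Among 20147 protein-coding genes, 58.5%, 57.9% and 43.9% reached that level in the same 3 tissues. At 10 FPKM or more there were 23 members in brain, 2 in testis and 0 in liver, beside 24.4%, 27.8% and 15.3% of protein-coding genes. Levels as listed ran in the order brain, testis, liver for 29 members and brain, liver, testis for 7. Testis led for the remaining pair, the complexin Cplx4 and the vesicle protein Sv2c. These orders include estimates not marked OK and values with overlapping bounds. Between testis and liver, bounds overlapped for 16 members and lay lower in testis for 2.

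Against liver, 28 of 38 members (73.7%) were called higher in brain and 0 lower. The same rule called 9.15% of all genes and 13.7% of protein-coding genes higher in brain, and 2.79% and 4.55% lower. The median difference, brain minus liver, was 4.85 over the members on the log2(FPKM + 1) scale, against 0.30 over protein-coding genes and 0.01 over all genes. Against testis, 26 of 38 members (68.4%) were called higher in brain and 0 lower. Here 7.19% of all genes and 10.4% of protein-coding genes were called higher in brain, and 11.0% and 14.2% lower. The median difference, brain minus testis, was 3.53 over the members and 0.00 over protein-coding genes. With bounds apart and no fold minimum, 35 members were higher in brain than in liver, beside 37.5% of all genes and 53.4% of protein-coding genes, and 0 were lower, beside 9.87% and 14.7%. By the same rule 34 were higher in brain than in testis, beside 24.6% of all genes and 35.8% of protein-coding genes, and 2 were lower, beside 28.3% and 35.3%.

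Testis and liver were much closer for these genes. Only Syt11, 1 of 38 members (2.63%), was called higher in testis than in liver, and 0 were lower, while 15.2% of all genes and 20.2% of protein-coding genes were called higher and 3.82% and 5.96% lower. The median difference, testis minus liver, was 0.19 over the members and 0.24 over protein-coding genes. With no fold minimum, bounds were apart with testis higher for 20 members (52.6%) and lower for 2, and they overlapped for 16. By that rule 39.6% of all genes and 51.4% of protein-coding genes were higher in testis, and 13.4% and 19.9% lower, so the higher share of the members was near the background. The count at 4-fold rests on the pseudocount, since most members were below 1 FPKM in both tissues: with 0.1 FPKM in place of 1 it was 10, beside 30.1% of protein-coding genes, and with 0.01 it was 17, beside 35.6%.

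**Figure D1:**
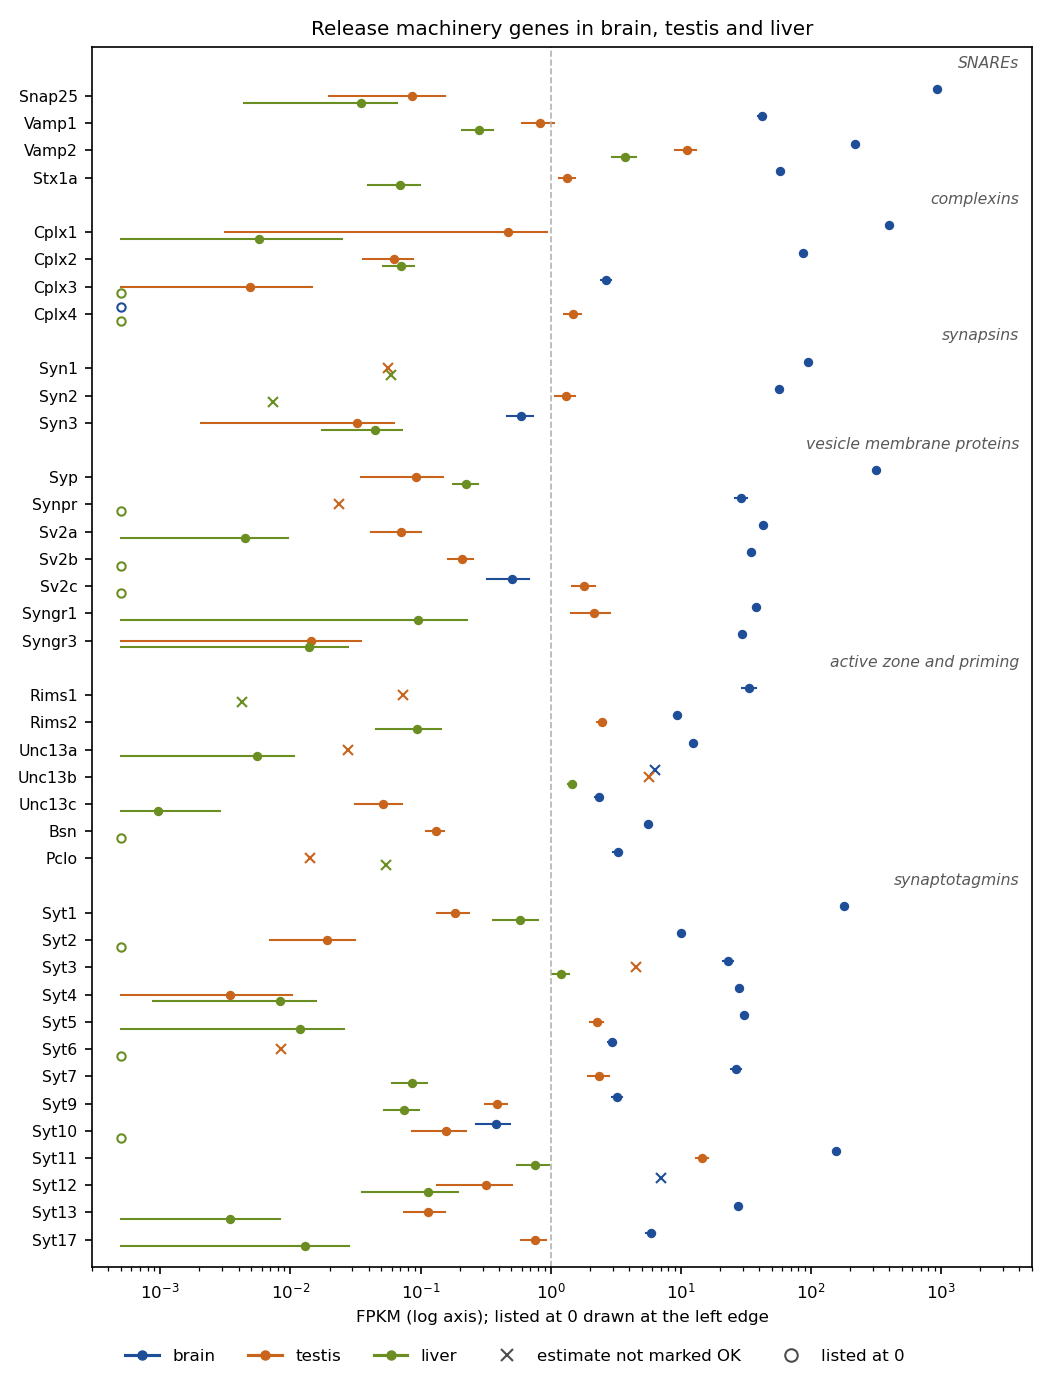
Levels in FPKM of the 38 genes on a log axis, by tissue, grouped by role, with the authors' confidence bounds as lines, crosses for estimates not marked OK and open circles at the left edge for values of 0. The dashed line is at 1 FPKM. Brain points lie to the right of the others for 36 genes, and Cplx4 and Sv2c are the exceptions.

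Scaling of the libraries moves all genes together. Relative to the FPKM as deposited, scaling to the protein-coding sum moved the median of 19960 genes by 0.62 for brain minus liver, 0.49 for brain minus testis and 0.03 for testis minus liver. Median-ratio scaling moved it by -0.43, -0.01 and -0.45 for the same differences, and scaling to the whole FPKM sum by -1.66, -1.90 and -0.29. The members' median difference under the last of these was 2.64 for brain minus liver and 1.30 for brain minus testis, and both stayed positive. Under that scaling alone the direction turned for Unc13b against liver and for Rims2, Unc13b, Syt3 and Syt10 against testis. The count of members higher in brain than in testis was 15 under it, beside 1.93% of protein-coding genes, and the calls lost were those of Vamp2, Syngr1, Rims1, Unc13a, Bsn, Pclo, Syt2, Syt3, Syt5, Syt7 and Syt11. Against liver it was 21, beside 3.16%, without Rims2, Unc13a, Bsn, Pclo, Syt2, Syt3 and Syt17. With OK estimates only, 24 of 32 members were called higher in brain against liver and 20 of 29 against testis, beside 13.4% and 10.4% of protein-coding genes.

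**Figure D2:**
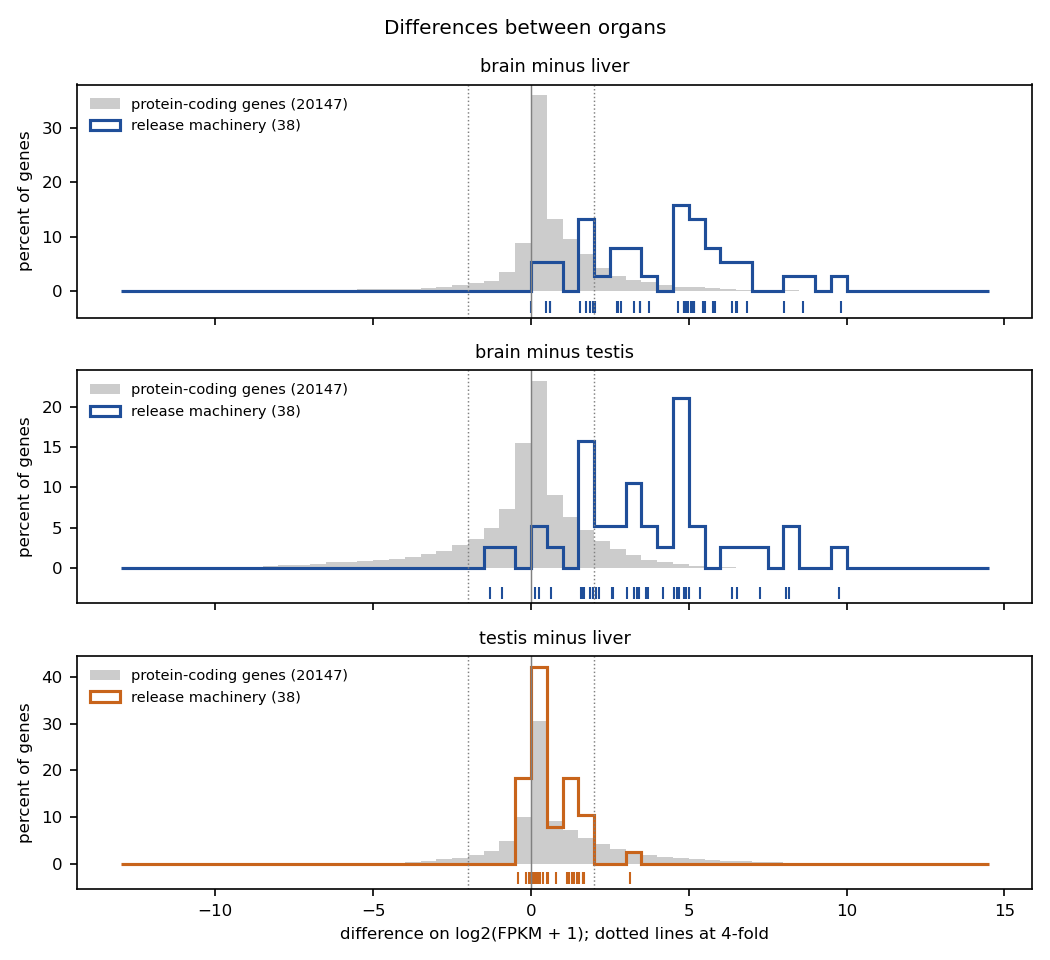
Distribution of differences on the log2(FPKM + 1) scale for brain minus liver, brain minus testis and testis minus liver, as percent of genes, with the 38 members as an outline and 1 tick each and the 20147 protein-coding genes in grey. Dotted lines mark 4-fold. The first 2 sets of members have medians of 4.85 and 3.53, and the third has a median of 0.19 with Syt11 at 3.14.

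Promoter sequences were examined because most members moved together between brain and the other tissues. RefSeq windows on GRCm38.p6, from 250 bases before to 50 bases after a gene's start, were looked up by symbol. Windows of 26 of 38 members were used, 35 in all. Cplx4 and Syt4 were left out by a rule on their chromosome, whatever the lookup by symbol gave. That rule was not applied to the 32851 windows of all genes, so the window sets compared below were not chosen alike. A member without a window here may still have one in RefSeq, so the member shares below cover these 26 members only. A GC box, searched as GGGCGG on both strands, was in 24 of 35 member windows (68.6%) and in 35.7% of all 32851 windows. The member windows were also richer in G and C, with a median of 62.7% against 52.7%. A TATA box, TATAAA on both strands, was in 2 member windows (5.71%), both of Sv2b, against 13.6% of all windows. The cyclic AMP response element TGACGTCA was in 1 member window (2.86%), that of Syn1, against 1.79%, and its core TGACG, which the full element contains, was in 6 (17.1%) against 20.8%. RE1 is the element bound by the repressor REST, which keeps neuronal genes silent in other cells. Its consensus was searched on both strands with up to 4 mismatches, and it was in 2 member windows (5.71%) and in 0.228% of all windows. These were Syn1, with 2 mismatches, and Syt6, with 4. A match is a description of the letters, and no use of any of these elements was measured here. The Syn1 window is shown because it holds the best RE1 match. Its capitals mark the RE1 match, which starts 232 bases before the gene's start, and the cyclic AMP response element, which starts 159 bases before it. It lies at chrX:20920869-20921168 on the minus strand.
Syn1: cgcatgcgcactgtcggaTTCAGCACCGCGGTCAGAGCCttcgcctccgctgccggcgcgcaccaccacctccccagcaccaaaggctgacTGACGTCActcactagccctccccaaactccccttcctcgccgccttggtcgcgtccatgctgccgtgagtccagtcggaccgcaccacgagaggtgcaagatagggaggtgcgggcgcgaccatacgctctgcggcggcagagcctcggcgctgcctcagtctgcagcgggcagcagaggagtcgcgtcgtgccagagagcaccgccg
The next 4 windows are of genes with unlike tissue patterns: Cplx1 and Syp were below 0.5 FPKM outside brain, Syt11 was the most abundant member in testis, and Sv2c was higher in testis than in brain. All 4 hold GC boxes, which are in capitals on whichever strand they were read. They lie at chr5:108549978-108550277 (minus strand) for Cplx1, chrX:7638330-7638629 (plus strand) for Syp, chr3:88772550-88772849 (minus strand) for Syt11 and chr13:96132528-96132827 (minus strand) for Sv2c.
Cplx1: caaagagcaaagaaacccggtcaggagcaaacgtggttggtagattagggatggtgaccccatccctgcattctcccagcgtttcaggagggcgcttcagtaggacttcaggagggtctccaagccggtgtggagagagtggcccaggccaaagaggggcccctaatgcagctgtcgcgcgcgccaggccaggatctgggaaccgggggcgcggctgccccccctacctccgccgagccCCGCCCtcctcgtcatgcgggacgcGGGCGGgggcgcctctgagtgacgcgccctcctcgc
Syp: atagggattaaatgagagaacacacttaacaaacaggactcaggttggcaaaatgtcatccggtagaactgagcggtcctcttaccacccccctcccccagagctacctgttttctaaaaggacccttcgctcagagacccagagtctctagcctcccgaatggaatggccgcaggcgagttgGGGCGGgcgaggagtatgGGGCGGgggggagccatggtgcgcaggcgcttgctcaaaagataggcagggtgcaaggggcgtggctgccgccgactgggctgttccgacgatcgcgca
Syt11: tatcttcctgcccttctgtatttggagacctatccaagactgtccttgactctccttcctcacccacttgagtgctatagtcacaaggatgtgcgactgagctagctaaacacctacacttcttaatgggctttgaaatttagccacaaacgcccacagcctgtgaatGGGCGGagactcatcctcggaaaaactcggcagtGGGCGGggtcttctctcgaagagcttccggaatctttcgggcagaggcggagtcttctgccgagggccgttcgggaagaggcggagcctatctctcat
Sv2c: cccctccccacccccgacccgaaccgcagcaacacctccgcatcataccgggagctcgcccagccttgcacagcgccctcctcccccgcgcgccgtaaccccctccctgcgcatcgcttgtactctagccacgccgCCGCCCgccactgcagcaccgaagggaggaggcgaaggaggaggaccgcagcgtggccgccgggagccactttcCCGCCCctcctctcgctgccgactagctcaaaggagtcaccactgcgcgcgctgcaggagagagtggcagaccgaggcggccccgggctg

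All 4 SNARE genes were called higher in brain than in either of the other tissues. Snap25 encodes the plasma membrane SNARE that gives the bundle a pair of its helices. It was the most abundant member, at 933 FPKM in brain (bounds 925 to 941), 0.0864 FPKM in testis (0.0197 to 0.153) and 0.0350 FPKM in liver (0.0044 to 0.0655). It ranked 26 of 20147 protein-coding genes in brain, and it alone made up 31.6% of the members' FPKM there. Taken as 2 standard deviations, the bounds correspond to about 6.70 fragments in testis and 5.23 in liver, so these low levels rest on few reads. Its locus is chr2:136539189-136608164 on mm9.

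Vamp2, the main vesicle SNARE of forebrain synapses, was at 217 FPKM in brain (209 to 225), 11.1 FPKM in testis (9.07 to 13.2) and 3.73 FPKM in liver (2.94 to 4.53). It was the only SNARE gene of the list above 1 FPKM in liver, where it made up 40.9% of the members' FPKM. Its locus in the tables, chr11:68901992-68922498 on mm9, overlaps that of the clock gene Per1 on the same strand. Per1 was at 6.68 FPKM in brain, 10.8 FPKM in testis and 0.587 FPKM in liver, and the part of shared reads in the low Vamp2 values was not tested.

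Vamp1, the vesicle SNARE prominent in brainstem, spinal cord and motor terminals, was at 41.8 FPKM in brain, 0.835 FPKM in testis and 0.284 FPKM in liver. Stx1a, a neuronal plasma membrane syntaxin, was at 57.7 FPKM in brain, 1.34 FPKM in testis (1.16 to 1.53) and 0.0691 FPKM in liver (0.0396 to 0.0985). For both genes the bounds in testis were above those in liver. None of the 4 SNARE genes reached a 4-fold difference between testis and liver on the log2(FPKM + 1) scale.

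Complexins bind the assembled SNARE bundle, acting both as a clamp and as an aid to fast fusion. Cplx1 was at 398 FPKM in brain (386 to 409), 0.470 FPKM in testis (0.00316 to 0.937) and 0.00573 FPKM in liver (0 to 0.0248). Cplx2 was at 87.4 FPKM in brain, 0.0622 FPKM in testis and 0.0702 FPKM in liver. Both were called higher in brain than in testis and than in liver, and Cplx1 alone held 81.5% of complexin FPKM in brain.

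The other two complexins are known from the retina, where Cplx3 and Cplx4 serve ribbon synapses. Cplx3 was at 2.67 FPKM in brain and 0.00486 FPKM in testis, and it was listed at 0 in liver. Its differences were 1.87 for brain minus testis and 1.88 for brain minus liver on the log2(FPKM + 1) scale, just under the 4-fold minimum of 2. Cplx4 was listed at 0 in brain, was at 1.48 FPKM in testis (1.26 to 1.70) and was listed at 0 in liver. Its testis bounds correspond to about 179 fragments, and it held 73.4% of complexin FPKM in testis. The complexin gene of highest level thus differed between tissues, Cplx1 in brain, Cplx4 in testis and Cplx2 in liver, where no complexin exceeded 0.0702 FPKM.

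Synapsins coat vesicles and tether them to actin in the reserve pool. Syn1 was at 95.7 FPKM in brain (94.4 to 97.0), 0.0566 FPKM in testis (0 to 0.709) and 0.0588 FPKM in liver (0 to 0.746). The testis and liver estimates were marked as failed, so only the wide bounds limit them, and the brain bounds were far above both. Its promoter window is the one with the RE1 match printed above. Syn2 was at 56.4 FPKM in brain, 1.31 FPKM in testis (1.09 to 1.54) and 0.00740 FPKM in liver, the last marked as low in data. Syn3 was low in all 3 tissues, at 0.596 FPKM in brain, 0.0325 FPKM in testis and 0.0448 FPKM in liver. Syn1 and Syn2 were called higher in brain against both tissues and Syn3 was not, with a difference of 0.63 for brain minus testis and 0.61 for brain minus liver.

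Of the 7 vesicle membrane proteins, 6 were called higher in brain than in testis and 6 higher than in liver, with Sv2c left out of both. Synaptophysin, encoded by Syp, is the classical marker protein of synaptic vesicles. It was at 316 FPKM in brain (313 to 319), 0.0924 FPKM in testis (0.0352 to 0.15) and 0.225 FPKM in liver (0.177 to 0.274). Syp was 1 of 2 members whose bounds in testis lay below those in liver. Synpr, its relative synaptoporin, was at 29.1 FPKM in brain and 0.0236 FPKM in testis, where it was marked as low in data, and was listed at 0 in liver.

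The synaptogyrins are small tetraspan proteins of the vesicle. Syngr1 was at 37.9 FPKM in brain, 2.14 FPKM in testis (1.43 to 2.85) and 0.0954 FPKM in liver (0 to 0.226). Syngr3 was at 29.7 FPKM in brain, 0.0145 FPKM in testis and 0.0140 FPKM in liver. Only Syngr1 of this pair was above 1 FPKM outside brain.

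The SV2 proteins are transporter-like glycoproteins of the vesicle that regulate release, and SV2A binds the antiepileptic drug levetiracetam. Sv2a was at 43.2 FPKM in brain, 0.0711 FPKM in testis and 0.00446 FPKM in liver. Sv2b was at 34.6 FPKM in brain and 0.208 FPKM in testis, and it was listed at 0 in liver. These paralogs shared the brain signal, with 55.2% of SV2 FPKM from Sv2a and 44.2% from Sv2b. Sv2c, which marks basal ganglia circuits, was at 0.504 FPKM in brain (0.325 to 0.682) and 1.82 FPKM in testis (1.46 to 2.18), and was listed at 0 in liver. Sv2c held 86.7% of SV2 FPKM in testis and 0.644% in brain. With Cplx4 it was 1 of 2 members whose brain bounds lay below those of testis, and its difference of -0.91 for brain minus testis did not reach the 4-fold minimum.

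The 7 active zone and priming genes had lower levels in brain than the SNAREs, between 2.34 and 33.6 FPKM, although all 7 were above 1 FPKM. RIM proteins tie vesicles to calcium channels. Rims1 was at 33.6 FPKM in brain, 0.0730 FPKM in testis (0 to 4.71) and 0.00423 FPKM in liver (0 to 0.801), with testis and liver both marked as low in data. Rims2 was at 9.43 FPKM in brain, 2.47 FPKM in testis (2.27 to 2.67) and 0.0942 FPKM in liver (0.0456 to 0.143). Rims1 was called higher in brain against both tissues, and Rims2 against liver only, with a difference of 1.59 for brain minus testis that turned negative under scaling to the whole FPKM sum. No test of the difference between these contrasts was possible.

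Munc13 proteins open syntaxin and make vesicles ready to fuse. Unc13a, the main form at excitatory synapses, was at 12.3 FPKM in brain, 0.0277 FPKM in testis, where it was marked as low in data, and 0.00551 FPKM in liver. Unc13b was listed at 6.30 FPKM in brain and 5.71 FPKM in testis, but both estimates were marked as failed, with bounds of 0 to 113 and 0 to 102. Only its liver estimate was usable, at 1.46 FPKM (1.36 to 1.56), so nothing can be read from it about brain or testis. Unc13c, known from the cerebellum, was at 2.34 FPKM in brain, 0.0516 FPKM in testis and 0.000955 FPKM in liver.

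Bassoon and piccolo are giant scaffold proteins of the active zone. Bsn was at 5.64 FPKM in brain and 0.131 FPKM in testis (0.110 to 0.151), and was listed at 0 in liver. Pclo was at 3.27 FPKM in brain, with 0.0141 FPKM in testis and 0.0541 FPKM in liver, both marked as low in data. Both were called higher in brain against both tissues. The differences of Pclo, 2.07 for brain minus testis and 2.02 for brain minus liver, were just over the minimum, and its calls were lost under median-ratio scaling and with OK estimates only. Both genes lost their calls at a 10-fold minimum and under scaling to the whole FPKM sum.

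The 13 synaptotagmins spanned a wide range of levels. In brain they ran between 0.377 FPKM for Syt10 and 180 FPKM for Syt1, in testis between 0.00345 FPKM for Syt4 and 14.5 FPKM for Syt11, and in liver between 0, for 3 of them, and 1.20 FPKM for Syt3. Against testis 8 of 13 were called higher in brain and against liver 9 of 13. The fast calcium sensors of release are Syt1, Syt2 and Syt9. Syt1 was at 180 FPKM in brain (177 to 184), 0.185 FPKM in testis (0.135 to 0.236) and 0.583 FPKM in liver (0.362 to 0.804). Syt2 was at 9.99 FPKM in brain and 0.0191 FPKM in testis, and was listed at 0 in liver. Syt9 was at 3.22 FPKM in brain, 0.385 FPKM in testis and 0.0748 FPKM in liver. Syt1 held most of the signal of the 3 in brain, and it was the other member with testis bounds below liver bounds.

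Syt7, a slow sensor of high calcium affinity, was at 26.6 FPKM in brain, 2.37 FPKM in testis (1.93 to 2.81) and 0.0863 FPKM in liver. Syt5 was at 30.7 FPKM in brain, 2.27 FPKM in testis and 0.0120 FPKM in liver. Syt3 was at 23.2 FPKM in brain and 1.20 FPKM in liver. In testis Syt3 was listed at 4.49 FPKM, marked as low in data and outside its own bounds of 0 to 3.85, so that value is unreliable. Syt5 and Syt7 were called higher in brain against both tissues, and their bounds in testis were above those in liver.

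Syt4, Syt11 and Syt13 lack the usual calcium binding of the family. Syt11 was at 157 FPKM in brain (152 to 162), 14.5 FPKM in testis (13.0 to 16.1) and 0.757 FPKM in liver (0.549 to 0.966). It was the only member called different between testis and liver, by 3.14 on the log2(FPKM + 1) scale, and it was also called higher in brain than in testis, by 3.35. Syt4 was at 28.1 FPKM in brain, 0.00345 FPKM in testis and 0.00830 FPKM in liver. Syt13 was at 27.7 FPKM in brain, 0.115 FPKM in testis and 0.00345 FPKM in liver. Levels of Syt4 and Syt13 in brain were alike and below that of Syt11, and in testis both were again far lower than Syt11.

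Of the remaining 4 synaptotagmins, Syt17 was at 5.91 FPKM in brain, 0.760 FPKM in testis and 0.0131 FPKM in liver, and it was called higher in brain only against liver. Syt12 was listed at 7.03 FPKM in brain, marked as low in data with bounds of 0 to 91.0, so it could not be called. Syt6, described on the acrosome of human sperm, was at 2.96 FPKM in brain and only 0.00849 FPKM in testis (0 to 0.365), marked as low in data, and was listed at 0 in liver. Its differences of 1.97 for brain minus testis and 1.98 for brain minus liver were just under the minimum. Syt10 was low, at 0.377 FPKM in brain and 0.156 FPKM in testis, and was listed at 0 in liver.

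**Figure D3:**
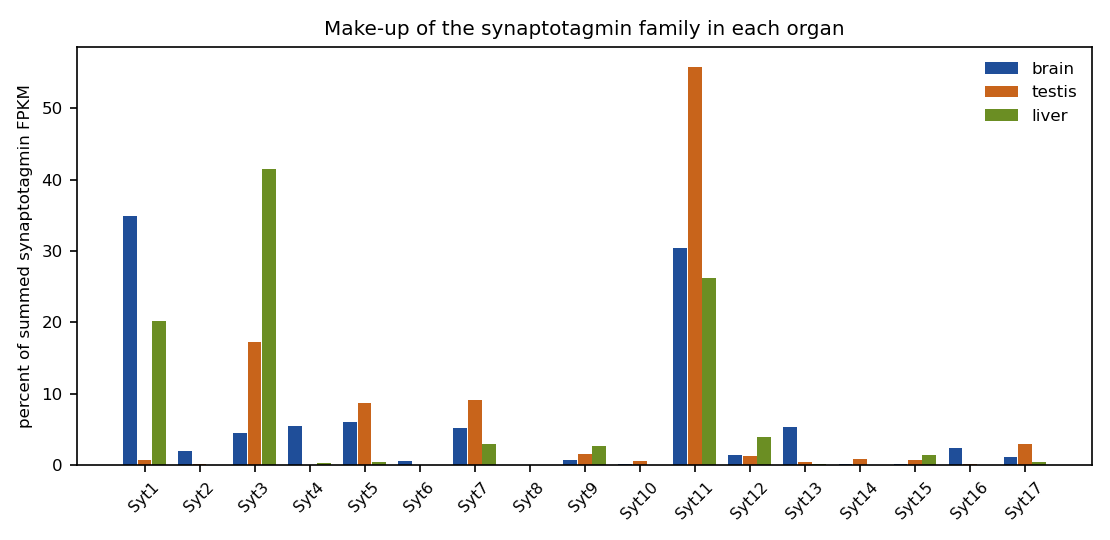
Share of the summed synaptotagmin FPKM taken by each gene in brain, testis and liver. Syt1 leads in brain with 35.0%, Syt11 in testis with 55.8% and Syt3 in liver with 41.5%.

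The makeup of the synaptotagmins therefore differed with the tissue, although the liver shares are parts of a sum of only 2.90 FPKM and the testis shares include the unreliable Syt3 value. Syt11 was a large part of each sum, with 30.4% in brain, 55.8% in testis and 26.1% in liver. Syt1 took 35.0% in brain, but 0.711% in testis and 20.1% in liver. The bulk of the signal outside brain therefore came from few genes: in testis Syt11, Vamp2 and Unc13b held 26.3%, 20.1% and 10.3% of the FPKM of all 38 members, the last from a failed estimate.

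How low the members fell outside brain was read as a percentage of the brain level, for the 37 members with a brain value. The median was 2.0% in testis and 0.0471% in liver. In testis 7 members were at or under 0.1% of brain, 11 above that and up to 1%, 12 above that and up to 10%, and 7 above 10%. In liver the counts were 22, 8, 6 and 1. These counts keep estimates not marked OK, which numbered 2 members in brain, 8 in testis and 4 in liver. Unc13b, failed in brain and testis, and Syt3, outside its own bounds in testis, were among those above 10% in testis. Unc13b was also the 1 above 10% in liver, set against its failed brain estimate. As listed, more members lay above 1% of brain in testis than in liver. The same ranges were not computed over all genes, so this is not read as particular to the members. With bounds apart and no fold minimum, 52.6% of members and 51.4% of protein-coding genes were higher in testis than in liver. Markers of glia were read in the same way. The 6 of them summed to 2437 FPKM in brain, 31.4 FPKM in testis and 32.3 FPKM in liver, mostly from the glutamate transporter Slc1a2 outside brain, whose liver estimate of 31.4 FPKM was marked as failed, and the water channel gene Aqp4 was listed at 0 in testis. The myelin gene Mbp was at 0.0670% of brain in testis. In liver it was listed at 0.0199% of brain but marked as low in data, so no member was set against it there. At or below the percentage of Mbp in testis were 5 members as listed, namely Snap25, Syn1, Syp, Syngr3 and Syt4. The Syn1 estimate in testis was marked as failed, with bounds of 0 to 0.709 FPKM, so its place among them is not secure. The part of brain RNA in these lowest values was not tested.

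**Figure D4:**
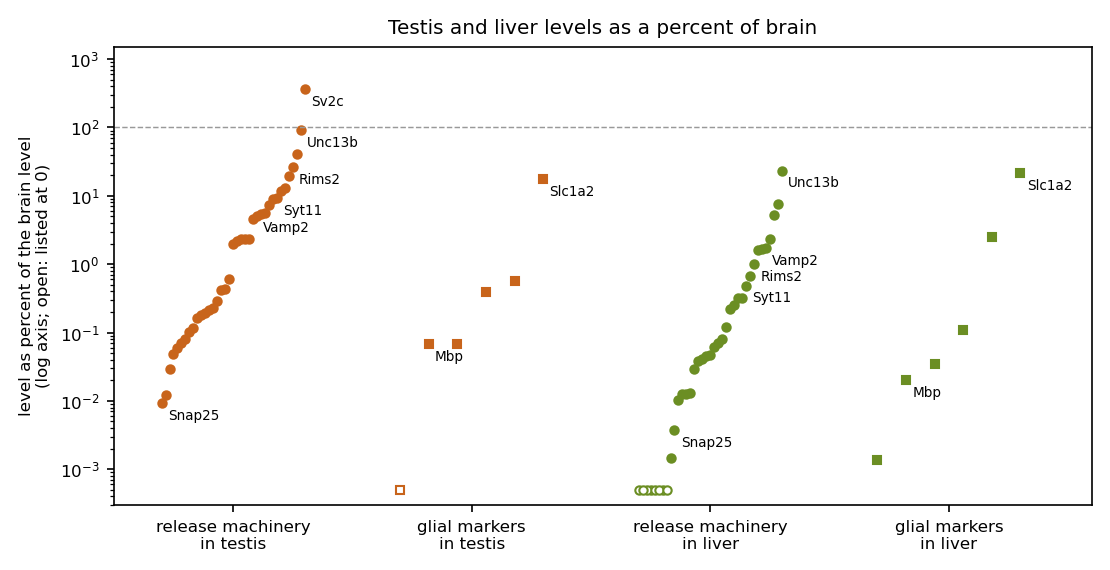
Level of each member in testis and in liver as a percentage of its level in brain, on a log axis (circles), beside the 6 glial markers (squares), with open symbols for values of 0 and a dashed line at 100%. Medians of the members are 2.0% in testis and 0.0471% in liver, and estimates not marked OK are included.

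Markers of cells that could carry these genes outside brain were low in testis and lower in liver. The 6 neuronal markers summed to 670 FPKM in brain, 39.4 FPKM in testis and 0.378 FPKM in liver. Most of the testis sum was the microtubule gene Map2, at 32.6 FPKM, while the neuronal splicing factor Rbfox3 was at 0.0981 FPKM and the neurofilament gene Nefl at 0.101 FPKM there. The 6 markers of neuroendocrine cells, which release hormone by the same machinery, summed to 577 FPKM in brain, 11.7 FPKM in testis and 0.0447 FPKM in liver, with the granule genes Chga and Chgb at 3.19 and 6.85 FPKM in testis. Chga and Chgb were the only 2 of these 6 markers at 1 FPKM or more in testis. The lowest of the 6 there was at 0.0598 FPKM, marked as low in data. The 4 peripheral nerve markers summed to 14.2 FPKM in brain, 0.994 FPKM in testis and 0.0166 FPKM in liver. The part of these cells in the testis levels of the members was not tested.

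The listed genes have paralogs that serve vesicle fusion in many cell types, and in testis and liver these held most of the FPKM in several families. Within the SNAP-25 family, Snap25 held 72.4% of its FPKM in brain, but 0.102% in testis and 0.0427% in liver. The broadly expressed Snap23 was at 4.97 FPKM in brain, 50.5 FPKM in testis and 28.5 FPKM in liver, and Snap47 at 345 FPKM in brain, 21.7 FPKM in testis and 46.8 FPKM in liver. Vamp1 and Vamp2 held 79.9% of VAMP FPKM in brain, but 15.8% in testis and 3.89% in liver. Vamp4 of the Golgi and endosomes led in testis with 39.7 FPKM, and the endosomal Vamp8 in liver with 88.3 FPKM.

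Of the paralogs of Stx1a, Stx2, which mouse spermatogenesis requires, was at 14.8 FPKM in brain, 83.7 FPKM in testis and 17.2 FPKM in liver. Stxbp2, a syntaxin-binding protein of secretory cells, was at 7.14 FPKM in brain, 23.8 FPKM in testis and 6.51 FPKM in liver. Both were thus at their highest level in testis, where Stx1a was at 1.34 FPKM. The SNAP-25 and VAMP families each had another leading gene in brain than in testis.

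The same held for the vesicle membrane families. Syp and Synpr held 97.1% of synaptophysin FPKM in brain, but 0.438% in testis and 2.34% in liver, while the broadly expressed Sypl held 99.3% in testis and 97.6% in liver. Syngr1 and Syngr3 held 96.9% of synaptogyrin FPKM in brain, but 2.26% in testis and 1.23% in liver. Syngr4 was at 0.0583 FPKM in brain and 89.6 FPKM in testis, and was listed at 0 in liver, and Syngr2 was at 2.11 FPKM in brain, 3.40 FPKM in testis and 8.79 FPKM in liver. The RIM members held 59.2% of RIM FPKM in brain, and in testis 62.4% and in liver 37.3%, with Rims1 marked as low in data outside brain. The listed synaptotagmins held 97.6% of their family in brain, 98.4% of it in testis and 98.6% of it in liver.

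**Figure D5:**
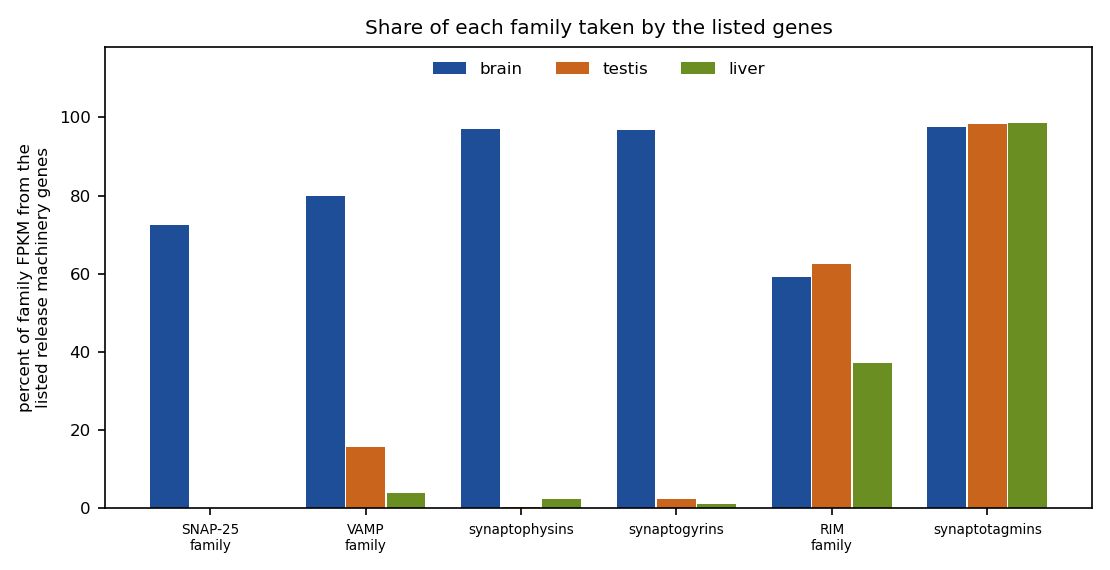
Percentage of each family's summed FPKM that came from the listed release machinery genes, in brain, testis and liver. In the SNAP-25, VAMP, synaptophysin and synaptogyrin families the share is highest in brain, at 72.4%, 79.9%, 97.1% and 96.9%.

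Over the 24 paralogs matched, 8 were called higher in brain than in testis and 3 lower, and 8 higher in brain than in liver and 2 lower. Of protein-coding genes, 14.2% were called lower in brain than in testis and 4.55% lower than in liver. Between testis and liver, 5 paralogs were called higher in testis and 1 lower, beside 20.2% and 5.96% of protein-coding genes. The paralog shares called higher in brain were nearer to the 10.4% and 13.7% of protein-coding genes than the members' 68.4% and 73.7%. The median difference over the paralogs was 0.21 for brain minus testis and 0.40 for brain minus liver, against 3.53 and 4.85 over the members.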

How the data were processed

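The authors deposited FPKM per gene, a count of fragments scaled by transcript length and library size, and the file headers also name confidence bounds and a status for every estimate. Cufflinks 2.0.0, TopHat 1.4.0 and Bowtie 0.12.5 with build mm9 stand in the submitters' processing notes. No source used here gives the gene annotation, the strand setting or the level of the bounds, and the bounds were taken as 95% intervals, or 2 standard deviations. Members, lists and rules were chosen with earlier results of these data known.

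The 36809 identifiers in all 3 tables were used, and FPKM was summed for 12 of them listed at several loci. Symbols and gene classes came from GENCODE M21 by identifier only, with 31837 symbols matched. Loci are printed on mm9 as 1-based positions, after a shift of the listed start by 1 that brought 37 of 37 mitochondrial genes onto their reference positions. Differences are on the log2(FPKM + 1) scale. A call needed 4-fold and bounds apart, with no filter on low values, and detection needed 1 FPKM. Fragments implied by the bounds came to 31.8 M for brain, 40.9 M for testis and 86.4 M for liver. For genes between 1 and 2 FPKM the bounds lay a median of 18.3%, 19.4% and 12.6% from the value, which covers error within a library only.

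No test was possible with 1 library per tissue, so calls are descriptions. The alternatives were other pseudocounts, fold minimums, detection levels and scalings, and using OK estimates only. A gene with a value of exactly 0 may have failed in estimation and is said to be listed at 0. Of the 38 members, 28 had an OK status in all 3 libraries. For every list the 2 highest genes in brain and the 2 highest in testis may be named, beside all members and their direct paralogs, some of which are not reported here. Loci of 19 members overlap another locus, 4 of them on the same strand, and those of Vamp1, Syn1, Syn2, Syn3 and Syt6 overlap a protein-coding gene on the other strand, and no source used here says how such reads were assigned. Python 3.11.15, numpy 2.4.6, pandas 2.3.3 and matplotlib 3.10.9 were used.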

Additional observations from a re-analysis of the deposited data

How the results depend on the processing

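Members higher in brain than in liver stayed between 21 and 35 under every alternative run. The lowest count came under scaling to the whole FPKM sum, beside 3.16% of protein-coding genes. The highest came with a pseudocount of 0.1 (beside 24.6%) or 0.01 (30.5%) and with no fold minimum (53.4%). No member was lower in brain than in liver under any of them, beside 2.60% to 24.1% of protein-coding genes. Members higher in brain than in testis numbered 15, not 26, under scaling to the whole FPKM sum (beside 1.93% of protein-coding genes), where Syt3 also turned to -0.36 for brain minus testis, the 1 called difference to change sign. Members lower in brain than in testis numbered 1 with a pseudocount of 0.1 (beside 19.0% of protein-coding genes) or 0.01 (21.7%) or a 2-fold minimum (22.4%). They numbered 2 with bounds apart and no fold minimum (35.3%), an alternative chosen after seeing the data. Members higher in testis than in liver, 1 in the report, numbered 10 with a pseudocount of 0.1 (beside 30.1% of protein-coding genes), 17 with 0.01 (35.6%), 4 under the whole FPKM sum (19.6%), 10 at 2-fold (32.5%), 0 at 10-fold (11.0%) and 20 with no fold minimum (51.4%), where 2 were lower. Members detected in testis, 12 at 1 FPKM, numbered 22 at 0.1 FPKM (beside 77.2% of protein-coding genes) and 3 at 5 FPKM (37.6%). Members detected in liver, 3 at 1 FPKM, numbered 8 at 0.1 FPKM (beside 60.2% of protein-coding genes), 5 at 0.5 FPKM (50.1%) and 0 at 5 FPKM (23.6%). Under the whole FPKM sum they numbered 5. The cause was not tested beyond what each setting does by construction. No paired analysis was possible because each tissue has 1 library. Depth limits the lowest values: 26 members in testis and 27 in liver had bounds worth 100 fragments or fewer, of which 19 and 23 were marked OK, and 9 more were listed at 0 in liver.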

Other observations

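Partner genes of the release machinery outside the paralogs were read by the same call rule. Of 62 such genes, 33 were called higher in brain than in testis and 5 lower, 37 higher in brain than in liver and 0 lower, and 12 higher in testis than in liver and 0 lower. The same calls took 10.4% and 14.2% of protein-coding genes for brain against testis, 13.7% and 4.55% for brain against liver, and 20.2% and 5.96% for testis against liver. The 18 fusion regulators leaned to brain, with 13 higher against testis and 14 against liver, and 0 differed between testis and liver. Rab3a, the small GTPase of synaptic vesicles, was at 411 FPKM in brain and 4.60 FPKM in testis, and its liver estimate of 1.32 FPKM was marked as failed. Nsf, the ATPase that takes SNARE bundles apart, was at 127 FPKM in brain, 2.14 FPKM in testis and 1.96 FPKM in liver, while its adaptor Napa was at 30.6, 19.0 and 6.38 FPKM in the same order of tissues. Of 13 active zone scaffold genes, 8 were higher in brain against testis and 8 against liver. Apba2 was at 33.5 FPKM in brain, 0.0346 FPKM in testis and 0.0270 FPKM in liver, both of these marked as low in data, but Lin7c, of the same scaffold, was at 12.9, 10.6 and 8.01 FPKM.

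Of 20 vesicle recycling genes, 7 were higher in brain than in testis and 5 lower, beside 10.4% and 14.2% of protein-coding genes. Between testis and liver 10 were higher in testis and 0 lower, beside 20.2% and 5.96%. Dnm1, the neuronal dynamin that pinches vesicles off, was at 223 FPKM in brain, 2.62 FPKM in testis and 0.0120 FPKM in liver. Scamp1, a carrier membrane protein of recycling vesicles, was at 67.7 FPKM in brain, 261 FPKM in testis and 21.9 FPKM in liver. Dnajc5b, a relative of the vesicle chaperone cysteine string protein, was at 0.252 FPKM in brain and 206 FPKM in testis, and was listed at 0 in liver. Of 6 vesicular transmitter transporters, 4 were called higher in brain against both tissues, and Slc17a7, which loads glutamate, was at 100.2 FPKM in brain, 2.61 FPKM in testis and 0.00674 FPKM in liver. Of 5 synaptotagmin-like genes, which dock secretory granules through Rab27, only Sytl2 was called, at 13.3 FPKM in brain, 0.626 FPKM in testis and 0.135 FPKM in liver.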
